A study of Sus scrofa with 21 samples.

Results

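Messenger RNA from boar testis was examined for 10 enzymes that remove reactive oxygen species or that form and reduce disulfide bonds. They were chosen by name, with earlier results of these data known. They comprised the peroxiredoxins PRDX4, PRDX5 and PRDX6, the glutathione peroxidase GPX4, and the superoxide dismutases SOD1 and SOD2. The others were catalase (CAT), the testis thioredoxin proteins TXNDC2 and TXNRD3, and the sulfhydryl oxidase QSOX1. Of these 10, 9 were matched by symbol to 1 each of the 25880 Ensembl genes in the count files. No row was matched by symbol to TXNDC2, which was not analysed here. The counts covered 21 purebred artificial insemination boars with 1 library each, 13 Landrace and 8 Duroc, whose testis tissue was frozen after slaughter, and the boars had been picked for extreme sperm hyperactivity, the vigorous asymmetric beating that sperm acquire before fertilization. Contrast (i) set 4 Landrace boars with high hyperactivity on the day of ejaculation, day 0 (L5, L6, L7 and L8), against 4 with low hyperactivity (L1, L2, L3 and L4). Contrast (iii) set 3 Landrace boars whose hyperactivity changed much during 96 h of liquid semen storage (L7, L13 and L15) against 4 in which it changed little (L2, L9, L10 and L12), so that L2 and L7 served in both contrasts. Contrast (ii) set 5 Duroc boars labelled High (D1 to D5) against 3 labelled Low (D6, D7 and D9). By the same boar names, the study's own list puts 7 of these 8 Duroc boars in the opposite group, so a direction in Duroc is only that of the deposited labels. The labels name no treatment, and the groups are defined by breed and by sperm motility measured in the boars' ejaculates.

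Sperm carry many unsaturated fatty acids and little cytoplasm, and reactive oxygen species both damage them and take part in their activation. Superoxide dismutases turn superoxide into hydrogen peroxide, which catalase, peroxiredoxins and glutathione peroxidases then remove. Thiol enzymes have a further role in the testis, since protamines and the proteins of the sperm tail and midpiece are cross-linked by disulfide bonds as spermatids mature. GPX4, a selenoprotein, is part of the midpiece capsule, and TXNRD3, a selenoprotein of the testis, reduces thioredoxin and glutathione disulfides.

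Total counts ran from 41358671 to 125576407 per library, with a median of 58530621. Rows that name no gene held 29.4% to 39.0% of the reads. Among these, reads not aligned uniquely made up 7.53% to 7.92% in the low boars of contrast (i). In the high boars they made up 5.83% to 7.20%, and the part of this difference in the results below was not tested. Levels are given as CPM, read counts scaled to library size with TMM factors (trimmed mean of M-values) over all 21 libraries. CPM are not divided by transcript length, so levels were compared between boars and not between enzymes. Testis identity was seen in the markers, since the summed level of 12 spermatid genes was 8583 to 18680 CPM over the 21 libraries. L13, a boar of the high change group, stood apart. It had the lowest spermatid sum, 8583 CPM against 10947 to 18680 in the other boars, the highest Sertoli cell sum, 615 against 224 to 387, and the highest macrophage sum, 220.1 against 58.8 to 132. The macrophage sum was mostly 1 gene, MRC1, with 207 CPM in L13 against 53.0 to 120.001 in the others, while the other 5 genes summed to 13.1 CPM in L13 against 2.32 to 12.97. Fold changes and counts of edgeR's quasi-likelihood test and values of r that include L13 are therefore also given without it. In bulk tissue, fewer cells of a type and less RNA per cell cannot be told apart, and this applies to every difference below.

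All 9 enzymes were detected in each boar, and QSOX1 varied most among them. QSOX1 ranged from 9.0 CPM in L8 to 33.0 CPM in D1, a 3.66-fold range with a coefficient of variation of 33.5% over the 21 boars. CAT (25.6%), SOD2 (25.3%) and PRDX5 (25.2%) came next, and PRDX6 varied least (14.2%), from 95.1 CPM in D9 to 181 CPM in L13. Without L13 these coefficients were 34.5% for QSOX1, 25.2% for CAT, 24.0% for SOD2, 23.0% for PRDX5 and 10.1% for PRDX6. L13 had the lowest level of the 21 boars for PRDX5, GPX4 and TXNRD3 and the highest for PRDX6 and SOD2.

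**Figure D1:**
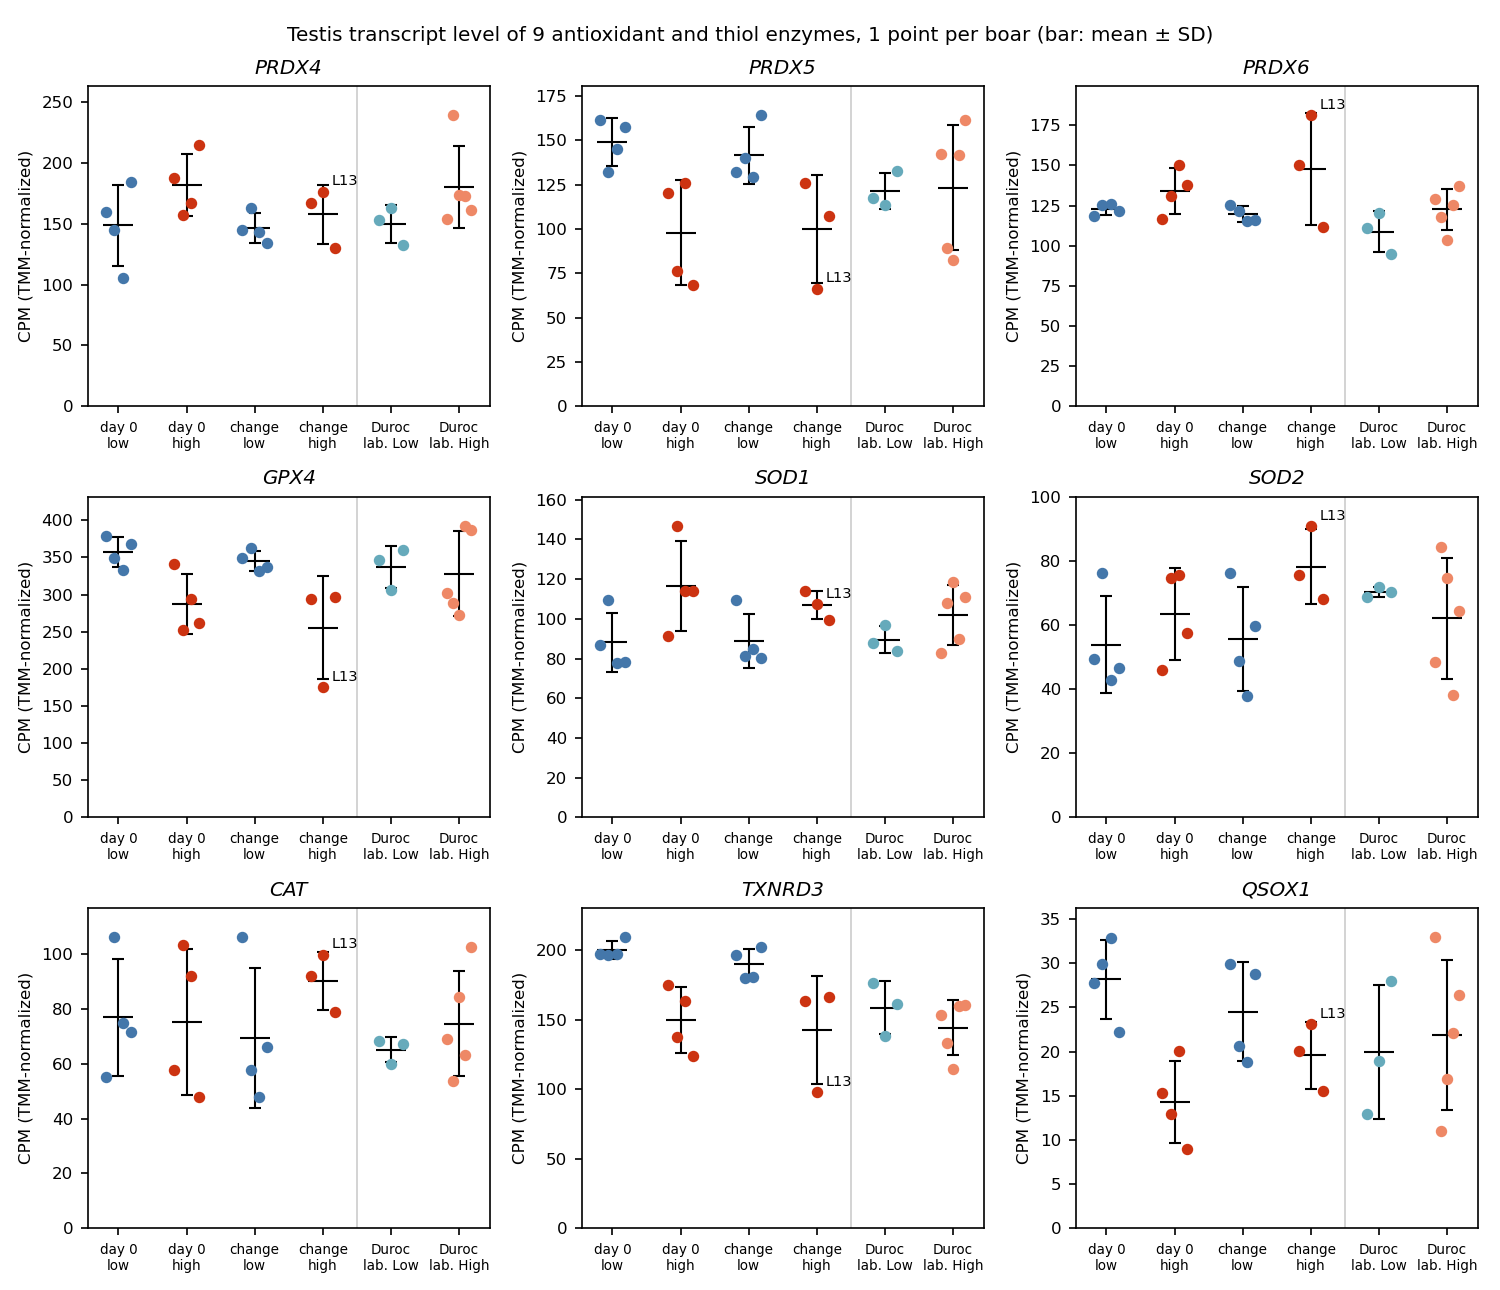
Transcript level of each enzyme (y axis, TMM-normalized CPM) in every boar, by group (x axis), with bars for the mean ± SD, and L2 and L7 shown in both Landrace contrasts. For QSOX1 the day 0 low boars sit between 22.2 and 32.9 CPM and the day 0 high boars between 9.0 and 20.1, while the groups overlap in Duroc for every enzyme.

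In contrast (i), QSOX1 transcript was lower in the boars with high hyperactivity. Of the 9 enzymes, it alone passed edgeR's quasi-likelihood test at an adjusted p of 0.05. The study had already named QSOX1 and PRDX5 as differentially expressed in this contrast, so their differences here are not independent findings. Over all 12979 genes tested, 20.7% passed in either direction and 15.8% passed as lower. For 3 enzymes, PRDX5, TXNRD3 and QSOX1, each high boar had less transcript than each low boar, while 29.1% of all genes had groups that did not overlap and 18.6% were lower without overlap. The median log2 fold change, high over low, was -0.02 over the enzymes and 0.03 over all genes, with 4 enzymes above 0 and 5 below. At an unadjusted p under 0.05 the count was 4 of 9 (QSOX1, PRDX5, TXNRD3 and SOD1) against 41.7% of all genes. The likelihood ratio test called 3 enzymes (QSOX1, PRDX5 and TXNRD3) and 26.4% of all genes, and DESeq2 called 3 (QSOX1, PRDX5 and SOD1) and 30.2%. The count rested on single boars. Without L5, edgeR's quasi-likelihood test called 5 enzymes (QSOX1, PRDX5, TXNRD3, SOD1 and GPX4), and without L1, L3 or L6 it called 0.

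Of the peroxiredoxins, which use a reactive cysteine to reduce peroxides, PRDX5 had lower values in the high group without overlap but missed the adjusted threshold. PRDX5 (ENSSSCG00000013030, chromosome 2, 7798672 to 7801955 in RefSeq's annotation of Sscrofa11.1, as for the genes that follow) is found in mitochondria, peroxisomes and cytosol. Its level in the low boars was 162 CPM in L1, 132 in L2, 145 in L3 and 158 in L4. In the high boars it was 121 CPM in L5, 76.4 in L6, 126 in L7 and 68.5 in L8. The high group split into a pair near the low boars and a pair well under them. The means were 149 ± 13.4 and 97.9 ± 29.6 CPM (SD, n = 4 each), a log2 fold change of -0.58 ± 0.21 (SE) with an adjusted p of 0.0623 by edgeR's quasi-likelihood test. The two-sided exact permutation p was 0.0286, the smallest that 70 assignments of the boars allow. PRDX5 passed by edgeR's likelihood ratio test (adjusted p = 0.0360), by DESeq2 (adjusted p = 0.0370) and by the quasi-likelihood test without L2 and L7 (adjusted p = 0.0292).

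In contrast (iii), PRDX5 was 132 CPM in L2, 140.2 in L9, 129 in L10 and 164 in L12 in the low change boars and 126 CPM in L7, 66.5 in L13 and 107 in L15 in the high change boars. The groups did not overlap here either, and they share L2 and L7 with contrast (i). The log2 fold change was -0.50 ± 0.21 (SE, 4 low and 3 high boars, adjusted p = 0.245 by edgeR's quasi-likelihood test). Without L13 it was -0.26 (adjusted p = 0.604 by the same edgeR test).

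PRDX4 and PRDX6 passed in neither contrast by any of the 3 tests. PRDX4 (ENSSSCG00000012171, chromosome X, 19800153 to 19819575), the peroxiredoxin of the endoplasmic reticulum, ran from 106 to 185 CPM in the low boars of contrast (i) and from 158 to 215 CPM in the high boars. The groups overlapped, and the high over low log2 difference was 0.30 ± 0.18 (SE, n = 4 each, edgeR quasi-likelihood adjusted p = 0.198), and 0.13 without L3. PRDX6 (ENSSSCG00000022742, chromosome 9, 115857629 to 115868898), which reduces oxidized phospholipids and also has phospholipase activity, ran from 118 to 126 CPM in the low boars and from 117 to 151 CPM in the high boars. Its log2 fold change was 0.14 ± 0.12 (SE, edgeR quasi-likelihood adjusted p = 0.361), and 0.069 without L7. In contrast (iii), PRDX4 and PRDX6 differed by log2 values of 0.11 ± 0.14 and 0.30 ± 0.16 (SE), and for PRDX6 the highest of the 3 high change values, 181 CPM, was that of L13. Single boars moved both values. Without L13 they were 0.040 for PRDX4 and 0.15 for PRDX6, and without L15 they were 0.23 and 0.47. For PRDX4 the value was 0.057 without L7 and 0.16 without L9.

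GPX4 transcript had lower means in the high group of both Landrace contrasts, and neither difference passed by any of the 3 tests. GPX4 (ENSSSCG00000024052, chromosome 2, 77321568 to 77323931) reduces lipid peroxides in membranes. In contrast (i) it was 379 CPM in L1, 349 in L2, 333 in L3 and 368 in L4 in the low boars and 342 CPM in L5, 252 in L6, 293 in L7 and 262 in L8 in the high boars. Of the high boars, L5 lay within the low range and the other 3 lay under it. The fitted log2 difference was -0.29 ± 0.14 (SE, n = 4 each, edgeR quasi-likelihood adjusted p = 0.124).

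In contrast (iii), GPX4 was 349 CPM in L2, 363 in L9, 332 in L10 and 337 in L12 in the low change boars. It was 293 CPM in L7, 176 in L13 and 297 in L15 in the high change boars, each under each low change boar. L13 was the lowest by a wide margin. The log2 fold change was -0.43 ± 0.18 (SE, edgeR quasi-likelihood adjusted p = 0.245), and -0.21 without L13 (edgeR quasi-likelihood adjusted p = 0.604).

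In contrast (i), DESeq2 called SOD1, while the quasi-likelihood test called neither superoxide dismutase nor catalase. SOD1 (ENSSSCG00000021355, chromosome 13, 195326573 to 195335273), the copper and zinc enzyme of the cytosol, was 87.0 CPM in L1, 109 in L2, 77.8 in L3 and 78.5 in L4 in the low boars. In the high boars it was 91.3 CPM in L5, 147 in L6, 114 in L7 and 114 in L8. The 3 low boars other than L2 lay under every high boar, and L2 lay above L5. The fitted log2 difference was 0.41 ± 0.16 (SE, n = 4 each) with an adjusted p of 0.0819 by edgeR's quasi-likelihood test, and DESeq2 gave an adjusted p of 0.0497. The exact permutation p was 0.0571. SOD2 (ENSSSCG00000040317, chromosome 1, 7679352 to 7689564), the manganese enzyme of mitochondria, was 43.0 to 76.3 CPM in the low boars and 46.0 to 75.8 CPM in the high boars, almost the same range. CAT (ENSSSCG00000013302, chromosome 2, 26493664 to 26533881), which breaks down hydrogen peroxide in peroxisomes, was 55.2 to 106 CPM and 47.8 to 103 CPM. Their log2 fold changes were 0.25 ± 0.21 for SOD2 and -0.02 ± 0.26 for CAT. For SOD2 the value ran from 0.12 without L3 to 0.43 without L2, and leaving out L4 (0.15), L5 (0.39) or L7 (0.14) also moved it by more than 1.5 times.

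In contrast (iii), SOD2 was 76.3 CPM in L2, 49.0 in L9, 37.8 in L10 and 59.9 in L12 in the low change boars and 75.8 CPM in L7, 91.0 in L13 and 68.2 in L15 in the high change boars. L2 lay among the high change boars and the other low change boars lay under them all. The log2 fold change was 0.50 ± 0.21 (SE, edgeR quasi-likelihood adjusted p = 0.245), and 0.39 without L13 (edgeR quasi-likelihood adjusted p = 0.630). SOD1 (0.27 ± 0.15, and 0.28 without L13) and CAT (0.38 ± 0.24, and 0.32 without L13) did not pass, and for both of them L2 was the one low change boar that lay above the lowest high change boar. Without L2 the log2 fold changes were 0.68 for SOD2, 0.39 for SOD1 and 0.66 for CAT, with adjusted p of 0.327, 0.342 and 0.309 by edgeR's quasi-likelihood test, and without L10 that of CAT was 0.22.

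TXNRD3 had less transcript in each high boar than in each low boar of both Landrace contrasts, and it passed edgeR's quasi-likelihood test in neither, while edgeR's likelihood ratio test called it in contrast (i). TXNRD3 (ENSSSCG00000023929, chromosome 13, 73276249 to 73336782) was 197 CPM in L1, 197 in L2, 197 in L3 and 209 in L4 in the low boars of contrast (i). It was 175 CPM in L5, 137 in L6, 163 in L7 and 124 in L8 in the high boars. The low boars were tightly grouped and the high boars were spread below them. The means were 200.05 ± 6.17 and 149.8 ± 23.6 CPM (SD, n = 4 each), a log2 fold change of -0.40 ± 0.14 (SE) with an adjusted p of 0.0628 by edgeR's quasi-likelihood test. The exact permutation p was 0.0286, again the smallest possible. The likelihood ratio test in edgeR gave an adjusted p of 0.0484, and DESeq2 gave 0.0612.

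In contrast (iii), TXNRD3 was 197 CPM in L2, 179.8 in L9, 181 in L10 and 202 in L12 in the low change boars and 163 CPM in L7, 97.6 in L13 and 166 in L15 in the high change boars. The highest high change boar lay under the lowest low change boar, and L13 was far below both other high change boars. The log2 fold change was -0.41 ± 0.18 (SE, edgeR quasi-likelihood adjusted p = 0.252), and -0.18 without L13 (edgeR quasi-likelihood adjusted p = 0.626).

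QSOX1 was the enzyme with the largest fold difference in contrast (i). QSOX1 (ENSSSCG00000015535, chromosome 9, 121779072 to 121822829) inserts disulfide bonds into folding proteins and passes the electrons to oxygen, with hydrogen peroxide as the product. It was 27.7 CPM in L1, 29.9 in L2, 32.9 in L3 and 22.2 in L4 in the low boars. In the high boars it was 15.3 CPM in L5, 12.9 in L6, 20.1 in L7 and 9.0 in L8. No high boar reached the lowest low boar. The means were 28.2 ± 4.48 and 14.3 ± 4.65 CPM (SD, n = 4 each), 1.93-fold lower in the high boars, or -0.95 ± 0.24 (SE) on the log2 scale, with an adjusted p of 0.0248 by edgeR's quasi-likelihood test. The adjusted p rose over 0.05 when L1 (0.0534), L3 (0.0587) or L6 (0.0598) was left out of the edgeR fit, with the log2 fold change from -1.17 to -0.77 over the 8 fits that each leave out 1 boar. Without L3 or L6, the edgeR test called 1 gene of all.

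In contrast (iii), QSOX1 was 29.9 CPM in L2, 20.7 in L9, 18.8 in L10 and 28.8 in L12 in the low change boars and 20.1 CPM in L7, 23.1 in L13 and 15.6 in L15 in the high change boars. The groups overlapped. The log2 fold change was -0.32 ± 0.21 (SE, edgeR quasi-likelihood adjusted p = 0.386), and -0.44 without L13 (edgeR quasi-likelihood adjusted p = 0.605). It was -0.18 without L15 and -0.21 without L2 (edgeR quasi-likelihood adjusted p = 0.613 and 0.629).

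In contrast (iii) as a whole, 0 of 9 enzymes passed edgeR's quasi-likelihood test, as did 0.0% of the 12824 genes tested. By the likelihood ratio test and by DESeq2 0 enzymes passed too, against 0.499% and 0.959% of all genes. At an unadjusted p under 0.05 the quasi-likelihood count was 3 of 9 (PRDX5, GPX4 and SOD2), where 19.8% of all genes reached it. PRDX5, GPX4 and TXNRD3 were lower without overlap, a pattern held by 8.92% of all genes, with 16.3% not overlapping in either direction. Without L13 the same 3 enzymes did not overlap, as did 18.6% of all genes, and 0 of 9 reached an unadjusted p under 0.05, where 8.04% of all genes did. The smallest exact permutation p for 35 assignments is 0.0286, which these 3 reached.

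**Figure D2:**
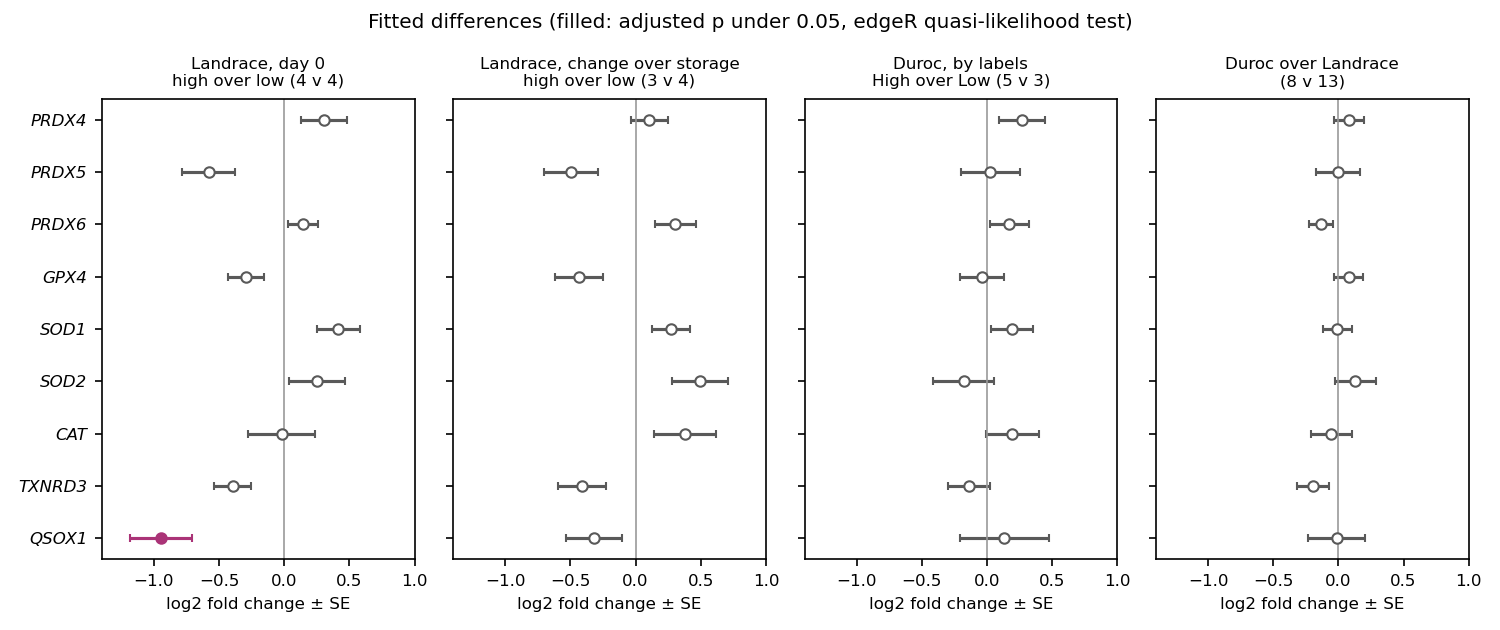
Fitted log2 fold change with its SE (x axis) of each enzyme (y axis) in the 4 comparisons, filled where the adjusted p was under 0.05. QSOX1 at day 0 in Landrace, -0.95, is the one filled point, and every Duroc over Landrace difference lies between -0.19 and 0.13.

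Sums of some marker lists of testis cell types differed between groups, while most overlapped. Their part in the enzyme differences was not tested. Over all genes in contrast (i), 15.8% were called lower and 29.1% did not overlap between groups. In contrast (i), the summed level of the pachytene spermatocyte list, 8 of 10 genes matched, was 1051 to 1379 CPM in the low boars and 1396 to 2163 CPM in the high boars. That of the spermatogonium list, 9 of 10 matched, was 1175 to 1508 and 1675 to 2536 CPM. Neither pair of ranges overlapped, and 1 gene of each list was called higher. All 7 tested spermatocyte genes had a log2 fold change above 0, but 3 of 7 spermatogonium genes did and 4 lay below 0. The spermatogonium sum was mostly DDX4, with 1067 to 1388 CPM in the low and 1568 to 2422 CPM in the high boars, and the other 8 genes summed to 88.8 to 142 and 85.9 to 122 CPM, which overlapped. The spermatid sum, with all 12 genes matched, overlapped (13771 to 18398 and 14260 to 18680 CPM), while 5 of its 12 genes were called lower and 0 higher. Of the peritubular myoid cell list, all 6 genes matched and 3 of 5 tested were called lower, with sums of 54.2 to 126 CPM in the low boars and 20.4 to 63.4 in the high boars. Endothelial sums were 26.2 to 46.9 and 12.04 to 39.2 CPM, with 1 of 5 genes called lower. Sums of the Leydig, Sertoli and macrophage lists overlapped, with 0 genes called.

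In contrast (iii), the spermatid sum was 15132 to 18139 CPM in the low change boars and 8583 to 15082 CPM in the high change boars. It did not overlap, and 11 of 12 spermatid genes had a log2 fold change below 0, with 0 called. Sertoli sums were 252 to 287 and 250.4 to 615 CPM, and macrophage sums 66.04 to 99.6 and 62.9 to 220.1 CPM, with L13 the highest in both. The other high change boars, L7 and L15, had spermatid sums of 15082 and 10947 CPM. Among the marker genes, AMH of the Sertoli list and CSF1R and CD14 of the macrophage list were at 0 in at least 1 library.

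**Figure D3:**
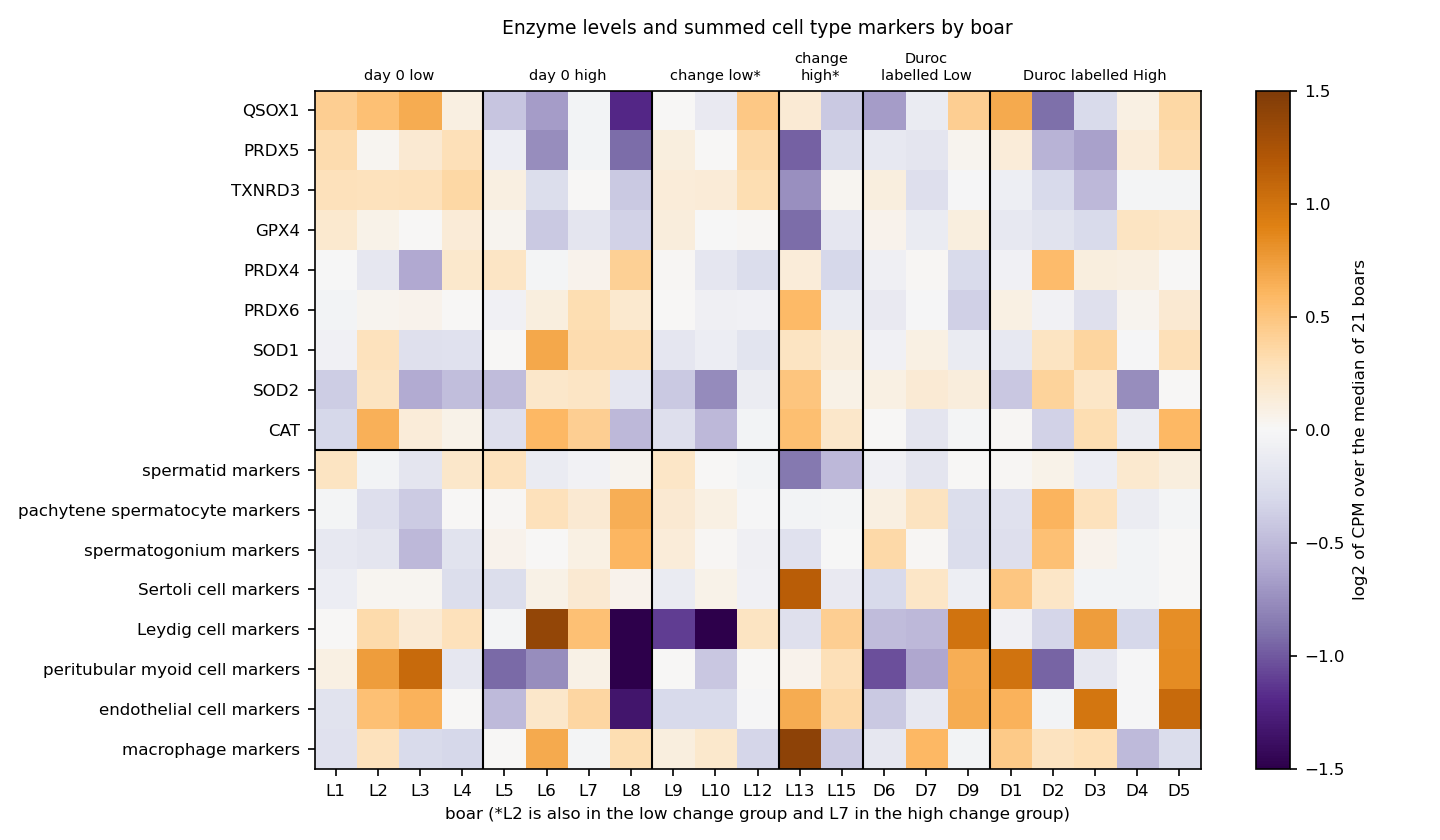
Level of each enzyme and summed level of each marker list (rows) in each boar (columns), as log2 of CPM over the median of the 21 boars, with values beyond 1.5 in either direction drawn at the end of the colour scale. L13 stands out by low PRDX5, TXNRD3, GPX4 and spermatid markers and by high Sertoli and macrophage markers, 615 and 220.1 CPM.

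In Duroc, by the deposited labels, no enzyme separated the groups. By edgeR's quasi-likelihood test 0 of 9 enzymes passed, as did 0.0% of 13043 genes, and the likelihood ratio test and DESeq2 also called 0. At an unadjusted p under 0.05 the count was 0 of 9, against 1.21% of all genes. The groups overlapped for all 9 enzymes, while 1.4% of all genes did not overlap. QSOX1 was 33.0 CPM in D1, 11.06 in D2, 16.9 in D3, 22.1 in D4 and 26.5 in D5 in the boars labelled High and 12.9 CPM in D6, 19.0 in D7 and 27.9 in D9 in those labelled Low. The boars labelled Low lay within the range of those labelled High. The log2 fold changes, labelled High over labelled Low, ran from -0.18 ± 0.24 (SOD2) to 0.27 ± 0.18 (PRDX4, SE, 5 and 3 boars). That of SOD2 was -0.32 without D2, -0.30 without D3 and -0.048 without D4. PRDX4 was 154 CPM in D1, 239 in D2, 174 in D3, 173 in D4 and 161 in D5 in the boars labelled High and 153 CPM in D6, 163 in D7 and 132 in D9 in those labelled Low, with D2 far above all other Duroc boars. Without D2 the log2 fold change of PRDX4 was 0.14.

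The difference of differences, Duroc by labels against Landrace at day 0, was tested as an interaction term over 16 boars. In edgeR's quasi-likelihood test 0 of 9 enzymes passed, as did 0.0% of 12920 genes, and by the likelihood ratio test it was 0 enzymes and 0.0232% of genes. By the deposited Duroc labels, QSOX1 had the largest interaction of the enzymes, 1.06 ± 0.45 on the log2 scale (SE, edgeR quasi-likelihood adjusted p = 0.329). It was the 1 enzyme with an unadjusted p under 0.05 (0.0319 by edgeR), which 15.1% of all genes reached. PRDX5 followed with 0.58 ± 0.33 (edgeR quasi-likelihood unadjusted p = 0.0991). This order rests on the deposited Duroc labels, and the order under the study's own Duroc groups was not tested.

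Between the breeds, no enzyme passed. In edgeR's quasi-likelihood test of 8 Duroc against 13 Landrace boars, 0 of 9 enzymes passed, where 2.77% of 12835 genes did, and the likelihood ratio test and DESeq2 called 0 enzymes, with 3.87% and 4.18% of all genes. At an unadjusted p under 0.05 the count was 0 of 9, against 12.2% of all genes. Without L13 it was 1 of 9 (TXNRD3, edgeR quasi-likelihood unadjusted p = 0.0281), against 14.3% of all genes, and at an adjusted p 0 of 9, against 3.68%. The breeds overlapped for each enzyme, and 0.28% of all genes did not overlap. QSOX1 had means of 21.3 ± 7.11 CPM in Landrace and 21.2 ± 7.62 CPM in Duroc (SD, n = 13 and 8), with lowest, median and highest values of 9.0, 20.7 and 32.9 CPM in Landrace and 11.06, 20.5 and 33.0 CPM in Duroc. TXNRD3 differed most, with means of 171 ± 33.5 CPM in Landrace and 149.6 ± 19.7 CPM in Duroc. Its log2 fold change, Duroc over Landrace, was -0.19 ± 0.12 (SE, edgeR quasi-likelihood adjusted p = 0.626), and -0.24 without L13 (edgeR quasi-likelihood adjusted p = 0.256). SOD2 was at the other end with 0.13 ± 0.16 (edgeR quasi-likelihood adjusted p = 0.974), and with 0.20 without L13. PRDX6 was -0.13, and -0.077 without L13. The Landrace mean of QSOX1 without L13 was 21.2 ± 7.40 CPM (SD, n = 12).

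In the Landrace boars, PRDX5, GPX4 and TXNRD3 varied together from boar to boar. Pearson's r of log2 CPM was computed for the 36 pairs of enzymes in each breed, with permutation p-values adjusted over the 72 tests. In the 13 Landrace boars, 8 pairs passed, 5 positive and 3 negative. The share of pairs that pass among all genes was not computed. Whether these links are particular to the enzymes was therefore not tested. PRDX5 and TXNRD3 had r = 0.95 (Spearman's rho 0.95, permutation p = 1e-05, adjusted 7.2e-04 for both, the smallest p that 100000 permutations can give), GPX4 and TXNRD3 r = 0.95 (rho 0.83, permutation p = 5e-05, adjusted 0.00144), and PRDX5 and GPX4 r = 0.89 (rho 0.81, permutation p = 6e-05, adjusted 0.00144). Without the boars farthest from the median of the first named enzyme, L8 and L13 for PRDX5 and L6 and L13 for GPX4, r was 0.93, 0.87 and 0.87. Without L13 alone it was 0.96, 0.90 and 0.90. QSOX1 had r = 0.68 with PRDX5 (rho 0.67, permutation p = 0.0105, adjusted 0.0699), 0.53 with TXNRD3 and 0.35 with GPX4, none of which passed. Without L13 alone, in which QSOX1 was not low while the other 3 were, these were 0.89, 0.90 and 0.74. The 13 boars include both day 0 groups, so that r spans the group differences above, and no group had enough boars for an r of its own.

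The other positive pairs that passed joined SOD2 with CAT and with SOD1. SOD1 with CAT did not pass (r = 0.53, permutation adjusted p = 0.172). SOD2 and CAT had r = 0.79 (rho 0.71, permutation p = 0.00216, adjusted 0.0374), and SOD1 and SOD2 r = 0.73 (rho 0.68, permutation p = 0.00424, adjusted 0.0412). Without the boars farthest from the median these were 0.69 and 0.82, and without L13 alone 0.75 and 0.76. The adjusted permutation p of rho was 0.103 and 0.111, over the threshold for both pairs. Of the negative pairs, 1 linked PRDX5 with SOD1 and 2 linked PRDX6 with GPX4 and with TXNRD3. PRDX5 and SOD1 had r = -0.76 (rho -0.76, permutation p = 0.00260, adjusted 0.0374), -0.85 without L8 and L13, and -0.80 without L13 alone. SOD1 and TXNRD3 passed by rank alone (r = -0.65, permutation adjusted p = 0.0821, and rho -0.79, permutation adjusted p = 0.0439), and r was -0.77 without L13. PRDX6 with GPX4 (r = -0.83, rho -0.49, permutation p = 0.00380) and with TXNRD3 (r = -0.79, rho -0.54, permutation p = 0.00458), both adjusted to 0.0412, rested on few boars. Without L7 and L13 these were -0.53 and -0.59, without L13 alone -0.53 and -0.51, and the adjusted permutation p of rho was 0.281 and 0.225.

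In the 8 Duroc boars 0 of 36 pairs passed, and r ran from -0.71 to 0.81. The highest were PRDX5 with GPX4 (r = 0.81, rho 0.71, exact permutation p = 0.0153, adjusted 0.0821) and GPX4 with TXNRD3 (r = 0.80, rho 0.74, exact permutation p = 0.0148, adjusted 0.0821), both pairs that passed in Landrace. PRDX5 with TXNRD3 had r = 0.79 (rho 0.60, exact permutation p = 0.0209, adjusted 0.0942). Without D2 and D3 the first was 0.54 and the last fell to 0.16, and without D3 and D4 the second was 0.74. SOD2 and CAT, which had r = 0.79 in Landrace, had r = -0.02 in Duroc, a difference that was not tested.

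**Figure D4:**
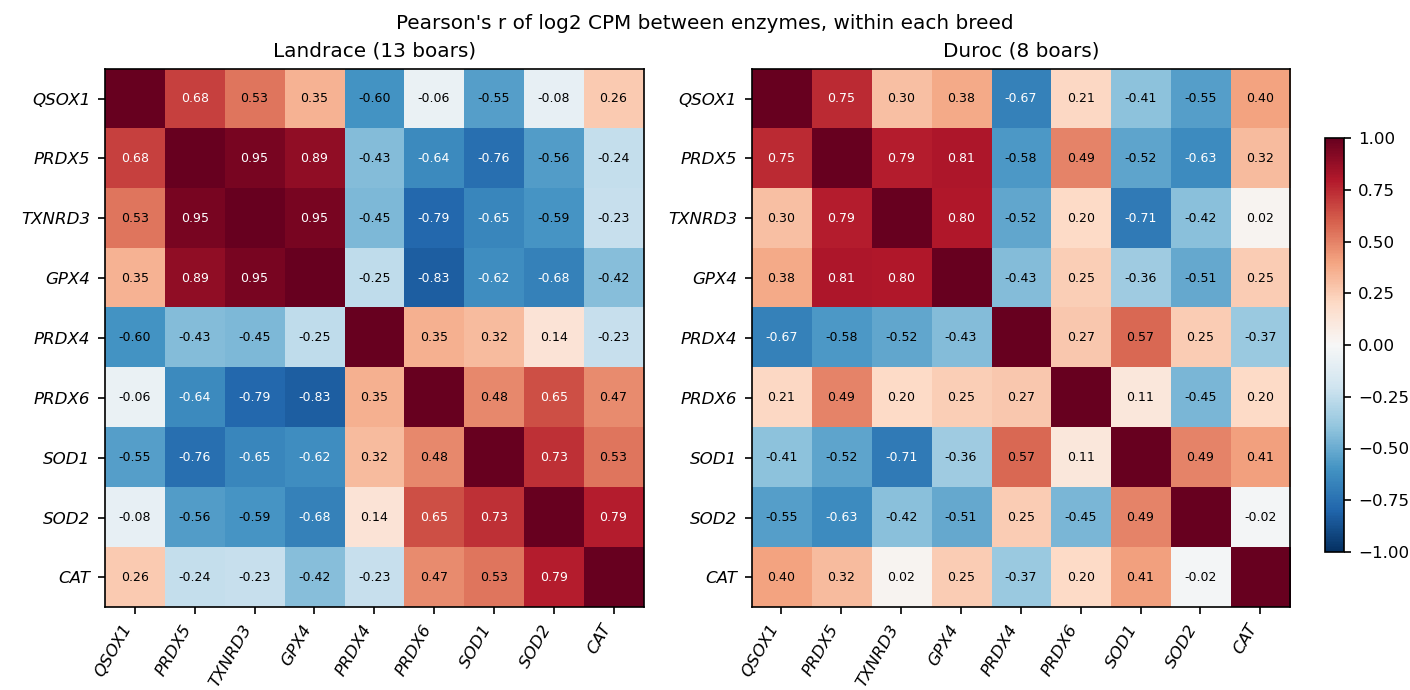
Pearson's r of log2 CPM for each pair of enzymes (rows and columns) in the 13 Landrace and the 8 Duroc boars, from -1 in blue to 1 in red. PRDX5, TXNRD3 and GPX4 form a red block in both breeds, with r of 0.89 to 0.95 in Landrace and 0.79 to 0.81 in Duroc, where 0 pairs passed and PRDX5 with TXNRD3 was 0.16 without D2 and D3.

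Other genes of the same biochemistry were read from a list of 65, of which 58 were matched by symbol and 55 were tested in contrast (i). Of the 55, 11 were called by edgeR's quasi-likelihood test, 3 of them higher and 8 lower in boars with high hyperactivity, or 20%, beside 20.7% of all genes, and the likelihood ratio test called 12 and DESeq2 14. The median log2 fold change was 0.07. CCS, the chaperone that loads copper into SOD1, was lower, with 7.29 ± 1.12 CPM in the low and 3.03 ± 1.5 CPM in the high boars (SD, n = 4 each, log2 fold change -1.23 ± 0.35, edgeR adjusted p = 0.0327). TXNDC5, a protein disulfide isomerase, was lower, at 8.18 ± 2.23 and 3.90 ± 0.913 CPM (log2 fold change -1.04 ± 0.26, edgeR adjusted p = 0.0248). Neither gene overlapped between groups, where 29.1% of all genes did not overlap and 18.6% were lower without overlap.

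Of the 3 genes higher in the high boars, NFE2L2, the transcription factor NRF2 that drives antioxidant genes, was 54.1 ± 6.64 and 79.4 ± 13.3 CPM in the low and high groups (log2 fold change 0.57 ± 0.15, SE, n = 4 each, edgeR adjusted p = 0.0277), with groups that overlapped. ERO1A, the oxidase that recharges protein disulfide isomerase, was 27.9 ± 2.82 and 38.4 ± 6.56 CPM (log2 fold change 0.47 ± 0.15, edgeR adjusted p = 0.0452). TXNL1, a thioredoxin-like protein of the cytosol, was 72.7 ± 5.44 and 94.5 ± 11.9 CPM (log2 fold change 0.39 ± 0.13, edgeR adjusted p = 0.0467). A further 5 lower genes, named after their values were seen, were KEAP1, the inhibitor of NRF2 (log2 fold change -0.79), the QSOX1 paralog QSOX2 (-0.98), the selenocysteine elongation factor EEFSEC (-0.97), the disulfide isomerase P4HB (-0.65) and the mitochondrial thioredoxin TXN2 (-0.60).

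By role, the calls fell on thioredoxins and their reductases (3 of 14 tested), disulfide formation in the endoplasmic reticulum (3 of 9), NRF2 regulators and targets (3 of 5), superoxide dismutase and its chaperone (1 of 2) and selenoprotein synthesis (1 of 5). Roles with 0 called were the other peroxiredoxins and sulfiredoxin (of 4), the other glutathione peroxidases (of 3), glutathione synthesis, reduction and glutaredoxins (of 9) and methionine sulfoxide reductases (of 4). Over all genes 20.7% were called, and with so few genes in each role, differences between roles were not tested. Each of the 11 called genes lost its call when L3 or L6 was left out, fits in which the edgeR test called 1 gene in all. The calls held in 6 of 8 such fits for TXNDC5 and EEFSEC, 5 for KEAP1, 4 for CCS, QSOX2 and NFE2L2, 2 for TXN2, ERO1A and P4HB, and 1 for TXNL1.

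**Figure D5:**
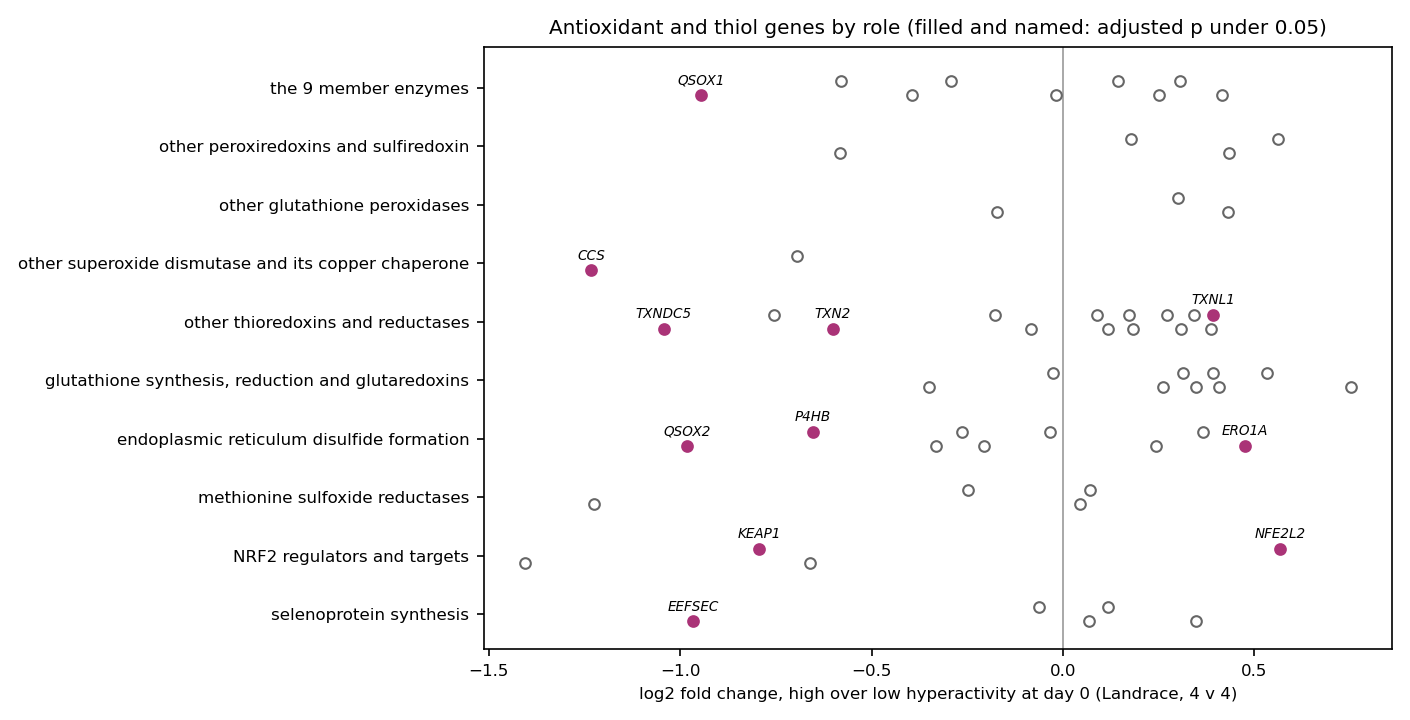
Log2 fold change, high over low at day 0 in Landrace (x axis), of the 9 enzymes and of 54 of the 55 further antioxidant and thiol genes by role (y axis), filled and named where the adjusted p was under 0.05. The filled genes of the list lie from -1.23 (CCS) to 0.57 (NFE2L2), on both sides of 0.

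In contrast (iii), 0 of 54 genes of the list passed edgeR's quasi-likelihood test, with 10 at an unadjusted p under 0.05, beside 19.8% of all genes. Without L13 these were 0 and 4 of 54, beside 8.04% of all genes. In Duroc by labels 0 of 55 passed, with 3 at an unadjusted p under 0.05, beside 1.21% of all genes. The likelihood ratio test and DESeq2 called 0 in both contrasts. Between the breeds 1 of 55 passed edgeR's quasi-likelihood test, beside 2.77% of all genes, and the likelihood ratio test called 1 and DESeq2 2. NME8, a thioredoxin domain protein of the sperm tail, was 280.5 ± 80.0 CPM in Landrace and 446 ± 175 CPM in Duroc (SD, n = 13 and 8), a log2 fold change of 0.67 ± 0.18 (SE, edgeR adjusted p = 0.0483). The breeds overlapped, and the call held in 5 of the 21 edgeR fits that each leave out 1 boar. Without L13 the log2 fold change of NME8 was 0.65 (edgeR adjusted p = 0.0542), and 2 other genes of the 55, MGST3 and GPX7, named after their values were seen, passed.

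The genes whose level followed each enzyme most closely over the 21 boars, by Pearson's r of log2 CPM centred within each breed among 12835 genes, are given as a description. PRDX5 was followed by AP2S1 and the unnamed gene ENSSSCG00000032122 (both r = 0.98), GPX4 by PROCA1 (0.98) and the unnamed gene ENSSSCG00000015545 (0.97), TXNRD3 by NF2 (0.97) and UBE2J2 (0.96), and QSOX1 by CLN6 (0.97). SOD1 was followed by ACADM (0.94) and by GCLM (0.90), the modifier subunit of the enzyme that starts glutathione synthesis. PRDX4 was followed by ARPC3 and BZW1 (both 0.91), and CAT by SORD and LASP1 (both 0.89). SOD2, with CREG1 (0.86) and the unnamed gene ENSSSCG00000025281 (0.86), and PRDX6, with MAP3K21 and MRPS6 (both 0.84), had the least close followers. Without L13 these values of r were 0.83 to 0.98, except for PRDX6, for which they were 0.71.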

How the data were processed

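Testis RNA of 21 boars was sequenced with 1 library per boar. Per the labels and the study's methods, the authors prepared stranded mRNA libraries, trimmed the reads with Trimmomatic 0.36, aligned them with STAR to Sscrofa11.1 and counted them by gene with HTSeq in reverse stranded mode. The deposited values are raw counts per Ensembl gene, without normalization. The 5 rows that name no gene were left out of library sizes and tests, and they held 29.4% to 39.0% of reads. Groups came from the deposited labels.

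Symbols were joined to Ensembl identifiers through a name table that named 14855 of 25880 rows, and coordinates were taken from RefSeq's annotation of Sscrofa11.1 by symbol. No sequences were used here.

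The filter kept genes of 1 CPM or more in at least 4 (contrasts), 8 (interaction) or 11 (breed) libraries. Counts were scaled by TMM and tested with the quasi-likelihood test of edgeR 4.0.16 in R 4.3.3, with Benjamini-Hochberg adjustment over all genes and a threshold of 0.05. Each SE is the fitted log2 fold change divided by the root of its F statistic. Exact permutation tests of mean log2 CPM were two-sided. Correlations used log2 CPM with a prior count of 2. The alternatives were the likelihood ratio test of the study, DESeq2 1.42.0, relative log expression (RLE) factors, no filter, thinned counts, other sets of Landrace boars and leaving out each boar. Spreads, overlaps and values of r without L13 were added after the data were seen. The fits were tested on simulated data. In a check for repeated libraries over 34 pairs of boars of 1 group, the chi-square per degree of freedom was 48.8 to 306, so none were duplicates.

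The enzymes and all gene lists were chosen with earlier results of these data known. Beside the enzymes, the text names up to 3 listed antioxidant genes in each direction that passed with the largest fold change, and the 2 genes closest to each enzyme, apart from items that are not reported here.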

Additional observations from a re-analysis of the deposited data

Results flagged for a closer look

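In 45 sets of 4 to 8 boars, 1 set per enzyme and group, 4 had a boar far from the others by Dixon's criterion. Chance gives about 1 in 20, or 2.25 sets. The sets share boars, and PRDX4 in D2 was counted both in the set labelled High and in the Duroc set. The count of 4 therefore cannot be tested against 2.25. TXNRD3 in the low group of contrast (i) was 209.3 CPM in L4 and 196.6 to 197.2 CPM in the other boars, so the gap is small in size. SOD1 in the low change group of contrast (iii) was 109.3 CPM in L2 against 80.17 to 84.89 CPM. PRDX4 was 239.4 CPM in D2 against 154.3 to 173.8 CPM in the other Duroc boars labelled High, and against 132.4 to 173.8 CPM over all other Duroc boars.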

How the results depend on the processing

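In contrast (i), the number of the 9 enzymes called was 1 by edgeR's quasi-likelihood test, 3 by the likelihood ratio test, 3 by DESeq2 and 2 without L2 and L7. It ran from 0 to 5 when each boar was left out in turn, with 0 without L1, L3 or L6, and with 5 without L5, and over all genes the count then ran from 1 to 3764. QSOX1 was called under each of the 7 other settings and was lost without L1, L3 or L6. All genes called in contrast (iii) numbered 0, and 64 by the likelihood ratio test, 123 by DESeq2, 1 without the filter and 0 to 1 without each boar. In Duroc by labels they were 0 to 2 without each boar. Between breeds they were 355, and 537 by DESeq2, 554 without the filter, 204 with the 8 Landrace boars of contrast (i) and 260 to 470 without each boar. For the interaction they were 0, and 3 by the likelihood ratio test. NME8 lost its breed call with RLE factors, without the filter and with the 8 Landrace boars.

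Differences near 0 changed sign. CAT in contrast (i) was -0.02, and 0.010 by DESeq2, 0.010 with RLE factors, 0.044 without the filter and 0.034 without L2 and L7, and -0.19 to 0.17 without each boar. PRDX5 in Duroc was 0.02, and -0.0051 by DESeq2, -0.0051 with RLE factors and -0.018 without the filter. Without each boar in Duroc, PRDX5 ran from -0.090 to 0.12, GPX4 from -0.11 to 0.012 and QSOX1 from -0.10 to 0.46. Between breeds QSOX1 was 0.0047 with the 8 Landrace boars of contrast (i), and without each boar it ran from -0.12 to 0.085, PRDX4 from -0.0047 to 0.13, PRDX5 from -0.068 to 0.071 and SOD1 from -0.047 to 0.054. The cause of these shifts was not tested. No paired analysis was possible because replicate numbers only follow the order of the samples. With 3 to 5 boars a group, differences of the size seen for PRDX5, TXNRD3 and SOD1 fell on either side of the threshold by tool.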
